A study of Danio rerio with 8 samples.

Results

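Mitochondria keep ribosomes of their own, which translate the few proteins encoded in mitochondrial DNA, all of them subunits of the respiratory chain and ATP synthase. The protein parts of these ribosomes are encoded in the nucleus, made in the cytosol and imported. They are named mrpl where they were first assigned to the large subunit and mrps where they were assigned to the small subunit. Photoreceptors are packed with mitochondria in their inner segments, and dividing progenitors also build new mitochondria. The genes described here are the 59 zebrafish genes, read by 69 probe sets, whose symbol in the array annotation starts with mrpl or mrps followed by a number, out of 8793 named genes and 15502 probe sets measured. The choice used symbols and no measured value. All 59 symbols stand unchanged in the RefSeq gene table, which lists 75 such symbols, and the other 16 were not analysed here.

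Whole-retina RNA of albino zebrafish (Danio rerio) was measured on Affymetrix zebrafish arrays. The control group held 4 unlesioned retina samples from fish that were adapted to darkness and then put back in normal lighting. The light lesion group held 4 samples from albino fish that were likewise adapted to darkness and then kept in bright constant light for 72 h, a treatment that kills photoreceptors and starts their regeneration from Müller glia. The light itself and the lesion it makes cannot be told apart in this design, and the labels do not say whether a sample was 1 fish or a pool. Values are the authors' RMA values on the log2 scale, in which a difference of 1 is a doubling. Log2 fold changes are light lesion over control, tested with limma across all 15502 probe sets, and a probe set was called when its Benjamini-Hochberg adjusted p was under 0.05.

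Retinal identity and the lesion were both visible in marker genes. None of 10 rod and none of 14 cone markers lay at background. Of the 10 rod markers 9 and of the 14 cone markers 11 were called lower, with median log2 fold changes of -1.63 and -0.39. In each of these 2 lists 1 marker was called higher. Of 21 microglia and leukocyte markers 19 were called higher and none lower (median 0.72, 1 of the 21 at background). Their mean level ran from 8.42 to 8.50 in controls and from 9.33 to 9.64 in light lesion arrays. Of 8 pigment epithelium and pigment cell markers 5 were called higher (range of their mean level 9.80 to 9.88 in controls and 10.7 to 10.9 after the lesion). Among markers of inner retinal neurons, 9 of 12 amacrine and horizontal cell markers (median -0.56), 3 of 5 bipolar cell markers (median -0.39) and 5 of 8 ganglion cell markers (median -0.36) were called lower, and 1, 0 and 3 of them higher. Müller glia markers were split, with 5 of 11 higher and 3 lower, and of 6 lens, 10 blood and 14 muscle markers 0, 0 and 1 were called higher and 1, 4 and 4 lower. The GAPDH probe set at the 3′ end of the transcript, read minus that at the 5′ end, gave 0.0450 ± 0.0219 (SD, n = 4) in controls and 0.213 ± 0.0562 in light lesion arrays (p = 0.0286 by a two-sided exact permutation test, the lowest p possible with 4 against 4 arrays). The same reading of actin had the opposite sign of difference, at -1.39 ± 0.109 in controls and -1.54 ± 0.149 after the lesion (exact permutation p = 0.200). These cell markers and the GAPDH reading move with the same groups as the values below, and their part in them was not tested. In whole-retina RNA, fewer cells of a type and less RNA per cell also cannot be told apart.

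Mitochondrial ribosomal protein transcripts moved by small amounts after the light lesion, more often up than down. Of the 69 probe sets 26 rose, 4 fell and 39 did not pass. The risers made up 37.7% of the probe sets, against 19.5% called higher over all probe sets, and the fallers 5.80%, against 20.7% called lower. The median log2 fold change was 0.12, against -0.04 over all probe sets. The changes ran from -0.32 to 0.77, and no member reached a 2-fold change. Changes of at least 2-fold were uncommon over the whole array too, called in 689 of 15502 probe sets. The groups did not overlap in 29 members (42.0%, against 40.0% of all probe sets). Non-overlapping groups with the light lesion arrays higher were found in 24 of the 69 members and in 2947 of all 15502 probe sets (19.0%). Read as genes, each by its brightest probe set, 22 of the 59 rose (37.3%, against 24.4% of all genes) and 4 fell (6.78%, against 20.1% of all genes). By that reading 3 of the 59 members and 2191 of all 8793 genes lay at background.

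**Figure D1:**
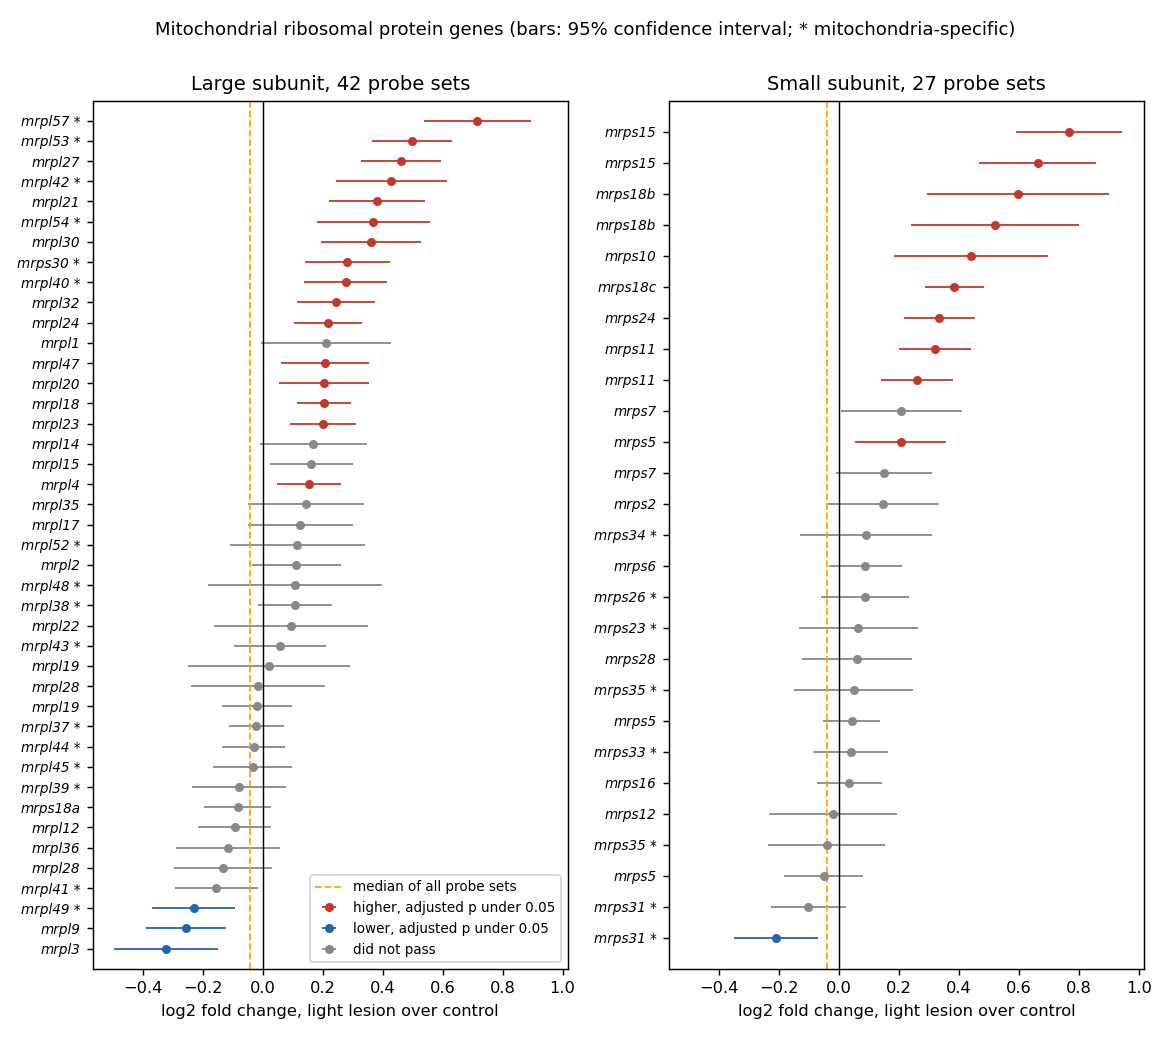
Log2 fold change of every probe set (x axis, light lesion over control, n = 4 arrays a group) for the large subunit (left) and the small subunit (right), with 95% confidence intervals as bars. Red probe sets were called higher, blue lower and grey did not pass. Asterisks mark proteins counted as having no bacterial counterpart, and the dashed line is the median of all probe sets, -0.04.

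The largest rise was that of mrps15, the counterpart of a bacterial small subunit protein that binds ribosomal RNA early in assembly. Its brighter probe set read 9.19, 9.10, 8.83 and 9.04 in control replicates 1 to 4 and 9.69, 9.83, 9.87 and 9.84 in light lesion replicates 1 to 4. The light lesion arrays lay clear of the controls, by more than the spread within either group. The change was 0.77 on the log2 scale (1.70-fold, SE 0.08, limma adjusted p = 5.27e-05). The second probe set of mrps15 rose by 0.66 (adjusted p = 2.35e-04).

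Among the other small subunit genes, mrps18b and mrps18c belong to a trio of vertebrate genes related to the single bacterial protein S18. The brighter probe set of mrps18b read 8.50, 8.43, 7.99 and 8.19 in controls and 8.70, 9.07, 8.73 and 8.69 after the lesion. The controls were scattered, with replicate 3 lowest, but the groups did not overlap (log2 fold change 0.52, SE 0.12, adjusted p = 0.00811). Its dimmer probe set rose by 0.60 (adjusted p = 0.00613), although light lesion replicate 1, at 8.01, lay just under the highest control at 8.03. Values of mrps18c were tight, at 10.42, 10.46, 10.44 and 10.42 in controls and 10.84, 10.88, 10.75 and 10.80 after the lesion. That made its rise of 0.38 one of the best separated relative to its error (SE 0.04, adjusted p = 1.05e-04). The third gene of the trio, mrps18a, whose human protein sits in the large subunit, had a control mean of 10.85 ± 0.05 and a light lesion mean of 10.76 ± 0.06 (adjusted p = 0.213).

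The small subunit head protein mrps10 read 9.37, 9.29, 9.09 and 9.16 in controls and 9.38, 9.78, 9.93 and 9.59 after the lesion. Light lesion replicate 1 barely cleared the highest control, and the other 3 arrays lay well above it (log2 fold change 0.44, SE 0.11, adjusted p = 0.0122). Both probe sets of mrps11, the counterpart of a bacterial protein of the small subunit platform, rose, by 0.26 and 0.32 (adjusted p = 0.00363 and 0.00107). The remaining risers of this subunit were mrps24, the counterpart of bacterial S3, at 0.33 (adjusted p = 7.51e-04), and 1 of the 3 probe sets of mrps5, at 0.21 (adjusted p = 0.0358). The brightest probe set of mrps5 had a control mean of 9.12 ± 0.04 and a light lesion mean of 9.17 ± 0.03 (adjusted p = 0.475) and its dimmest differed by -0.05, so that the 3 did not show 1 direction. The call of the mrps5 probe set was lost when any of control replicates 2, 3 and 4 or light lesion replicates 1, 2 and 3 was left out (adjusted p between 0.0660 and 0.0942).

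In the large subunit the largest rise was that of mrpl57, a small protein with no bacterial counterpart. It read 9.63, 9.61, 9.29 and 9.43 in controls and 10.16, 10.16, 10.28 and 10.22 after the lesion. The light lesion arrays lay closer together than the controls and all above them (log2 fold change 0.72, 1.64-fold, SE 0.08, adjusted p = 8.00e-05). Next came mrpl53, another protein without a bacterial counterpart, with 9.21, 9.18, 9.09 and 9.04 in controls and 9.71, 9.68, 9.53 and 9.59 after the lesion (0.50, SE 0.06, adjusted p = 1.33e-04). The gene mrpl27, whose bacterial counterpart reaches into the site of peptide bond formation, read 9.42, 9.41, 9.30 and 9.36 in controls and 9.69, 9.85, 9.91 and 9.88 after the lesion (0.46, SE 0.06, adjusted p = 2.10e-04). In both genes the lowest light lesion array stood well above the highest control.

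Further large subunit genes rose by less. The mitochondria-specific mrpl42 read 10.35, 10.24, 10.21 and 10.08 in controls and 10.45, 10.64, 10.73 and 10.77 after the lesion, a rise of 0.43 (SE 0.08, adjusted p = 0.00244) in which light lesion replicate 1 came close to the controls. The counterpart of bacterial L21, mrpl21, rose by 0.38 (adjusted p = 0.00210), the mitochondria-specific mrpl54 by 0.37 (adjusted p = 0.00636) and the counterpart of bacterial L30, mrpl30, by 0.36 (adjusted p = 0.00370). For mrps30, a member of the large subunit in human mitochondria despite its name, the rise was 0.28, and for mrpl40, which has no bacterial counterpart, it was 0.28 as well. The last 8 risers, at 0.15 to 0.24, were mrpl32, mrpl24, mrpl47, mrpl20, mrpl18, mrpl23 and mrpl4 of the large subunit and the mrps5 probe set above. In bacteria the counterparts of mrpl23 and mrpl24 line the mouth of the exit tunnel, and that of mrpl18 binds the 5S RNA. Replicates of mrpl18 were tight, and it rose from 9.99, 9.99, 9.94 and 9.99 to 10.19, 10.16, 10.16 and 10.20 (0.20, SE 0.04, adjusted p = 0.00285). Arrays of the 2 groups overlapped for mrpl47 and mrpl20. Leaving out a single array ended the call for mrpl47 (control replicate 2, 3 or 4 or light lesion replicate 3 or 4), mrpl20 (control replicate 1 or 4 or light lesion replicate 2 or 3) and mrpl4 (control replicate 2, 3 or 4 or light lesion replicate 1 or 3), with the adjusted p reaching 0.0845, 0.100 and 0.103 over all alternatives.

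**Figure D2:**
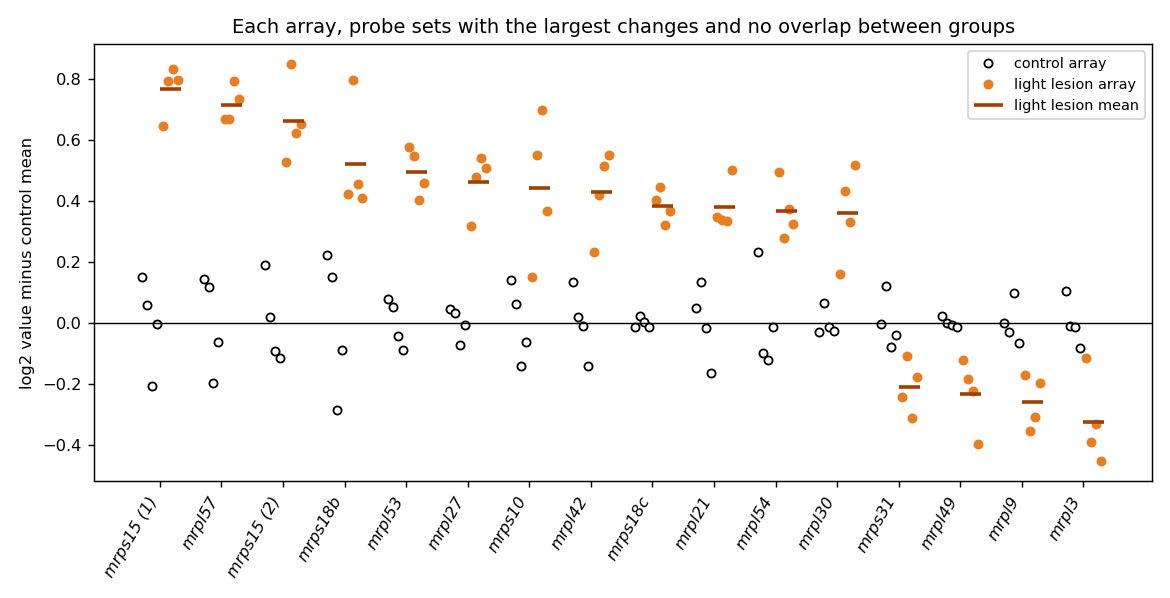
Log2 value of each array minus the control mean of that probe set (y axis) for the 12 largest rises and the 4 falls among called probe sets whose groups did not overlap. Open circles are the 4 control arrays, filled circles the 4 light lesion arrays and short lines the light lesion mean; mrps15 appears with both of its probe sets.

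Only 4 probe sets fell, 3 of the large subunit and 1 of the small. The largest fall was that of mrpl3, the counterpart of a bacterial protein that joins the large subunit at the start of its assembly. It read 10.42, 10.31, 10.30 and 10.24 in controls and 10.20, 9.92, 9.98 and 9.86 after the lesion, with light lesion replicate 1 only just below the lowest control (log2 fold change -0.32, SE 0.08, adjusted p = 0.00780). The counterpart of bacterial L9, mrpl9, went from 9.17, 9.15, 9.27 and 9.11 to 9.01, 8.82, 8.87 and 8.98 (-0.26, SE 0.06, adjusted p = 0.00647). The mitochondria-specific mrpl49 held 9.27 to 9.30 in all controls and read 9.16, 9.10, 9.06 and 8.89 after the lesion (-0.23, SE 0.06, adjusted p = 0.0133). In the small subunit mrps31 fell from 9.04, 9.17, 8.97 and 9.01 to 8.81, 8.94, 8.74 and 8.87 at its brighter probe set (-0.21, SE 0.06, adjusted p = 0.0230), and its other probe set, which lay at background, differed by -0.10 (adjusted p = 0.173). The mrps31 call was lost without control replicate 2 (adjusted p = 0.0684) or light lesion replicate 3 (adjusted p = 0.0649).

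The 39 probe sets that did not pass had changes from -0.16 to 0.21, 24 above 0 and 15 below. Their 95% confidence intervals reached from -0.30 at the lowest to 0.43 at the highest, and in all 39 the interval lay inside a 1.5-fold change in either direction. The 4 of smallest p were mrpl15 (0.16, adjusted p = 0.0644), mrpl41 (-0.16, adjusted p = 0.0726), mrps7 (0.21 at its brighter probe set, adjusted p = 0.0966) and mrpl1 (0.21, adjusted p = 0.113). For mrpl15 the groups stood apart upwards, and for mrpl41 downwards. With the second quantile normalization mrpl41 was called lower (-0.21, adjusted p = 0.00594). The same normalization called the brighter probe set of mrpl28 lower (-0.17, adjusted p = 0.0486), and the background covariate described below also called mrpl41 (adjusted p = 0.0273). Leaving out a single array brought 4 other genes past the threshold. These were mrpl15 (without control replicate 1, adjusted p = 0.0493), mrps2 (0.15, without control replicate 1 0.22, adjusted p = 0.0203), mrpl14 (0.17, without light lesion replicate 4, adjusted p = 0.0435) and both probe sets of mrps7 (without light lesion replicate 4, adjusted p = 0.0291 and 0.0441). Also among those that did not pass stood several genes of central or specialised function. The gene mrpl12, whose bacterial counterpart forms the stalk that recruits translation factors, had a control mean of 10.12 ± 0.08 and a light lesion mean of 10.02 ± 0.05 (adjusted p = 0.199). The RNase III-related mrpl44 had means of 8.80 ± 0.04 and 8.77 ± 0.05 (adjusted p = 0.627), and mrpl45, which in human mitochondria contacts the inner membrane, had means of 9.63 ± 0.09 and 9.60 ± 0.07 (adjusted p = 0.669).

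The small subunit gene mrps12, part of the decoding site, rested on a single array. It read 9.87, 9.86, 9.80 and 9.80 in controls and 9.50, 9.91, 9.92 and 9.93 after the lesion, so that light lesion replicate 1 lay below all controls and the other 3 above them (log2 fold change -0.02, adjusted p = 0.878). Without that array the change was 0.08 (adjusted p = 0.187). Probe sets for mrpl1, mrpl43, mrps33 and the dimmer one for mrps31 lay at or under the background reference of 7.04, the highest mean of the array's Bacillus control probe sets, so that a change in these could be understated.

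Of the 9 genes with more than 1 probe set, 19 probe sets in all, 6 had all of theirs on the same side of 0. Both probe sets were called higher for mrps11, mrps15 and mrps18b. Besides mrps5 and mrps31, described above, no probe set of mrps7, mrps35, mrpl19 or mrpl28 was called in the comparison of all arrays as deposited. The 2 of mrps7 read 0.15 and 0.21, those of mrps35 -0.04 and 0.05, those of mrpl19 -0.02 and 0.02, and those of mrpl28 -0.13 and -0.02.

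Among large subunit genes 16 of 40 rose (40%, against 24.4% of all genes) and 3 fell, with a median of 0.13. Among small subunit genes 6 of 19 rose (31.6%, nearer to the share of all genes) and 1 fell, with a median of 0.09. Of 37 genes whose proteins have a bacterial counterpart 16 rose (43.2%) and 2 fell (median 0.16). Of 22 genes whose proteins are found only in mitochondria 6 rose (27.3%, close to the share of all genes) and 2 fell (median 0.07). All 6 mitochondria-specific risers belonged to the large subunit, where there were 16 such genes, namely mrpl57, mrpl53, mrpl42, mrpl54, mrps30 and mrpl40. The 6 mitochondria-specific small subunit genes, mrps23, mrps26, mrps31, mrps33, mrps34 and mrps35, held no riser and 1 faller (16.7%, near the share of all genes). They are few, and mrps33 lay at background. The 13 small subunit genes with a bacterial counterpart held 6 risers (46.2%) and no faller. The genes mrps18a, mrps18b and mrps18c, related to the same bacterial protein, were all counted as having a bacterial counterpart. With mrps18b counted as mitochondria-specific instead, that kind would hold a riser in the small subunit too. These differences between kinds of member were not tested.

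Some control arrays tended to rank high or low across the members. In the control group replicate 1 was highest in 44 of the 69 probe sets, replicate 3 lowest in 32 and replicate 4 lowest in 28. These ranks were taken over the members only, so they may not be particular to the members. The median over members, taken against the control mean of each probe set, was 0.07, 0.03, -0.04 and -0.04 in control replicates 1 to 4 and 0.14, 0.16, 0.15 and 0.08 in light lesion replicates 1 to 4. Each light lesion array thus had a higher median than any control, replicate 4 by little. Among the 26 risers alone, which were chosen for being higher, light lesion replicate 1 was the lowest array at a median of 0.25 and each of the other 3 stood at 0.34. Control replicate 3 also had the brightest Bacillus control probe sets, a measure of background, with a mean of 6.55 against 6.31 to 6.41 in the other 3 controls and 6.29 to 6.39 in light lesion arrays. With that background as a covariate 24 members were called higher and 5 lower.

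**Figure D3:**
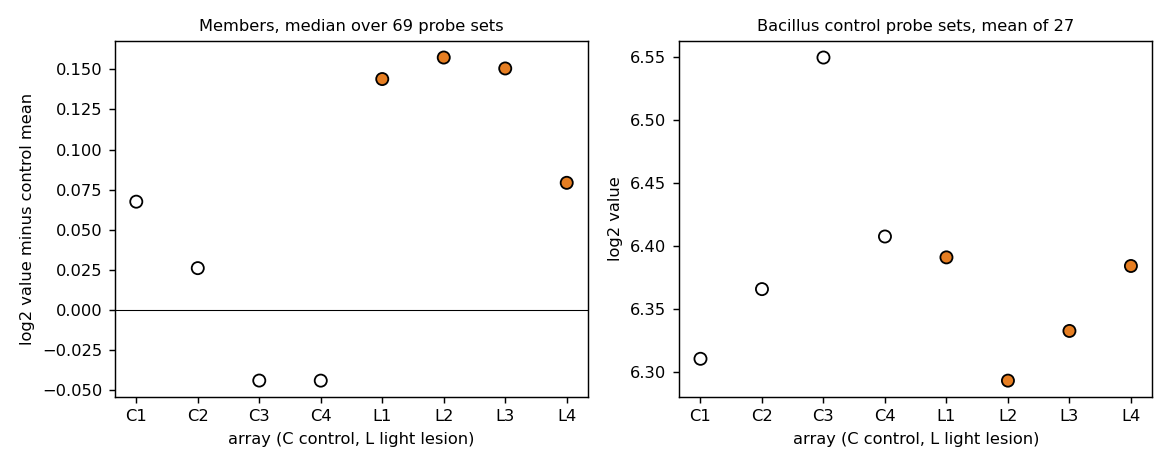
Left, the median over the 69 probe sets of the log2 value minus the control mean, for each array; right, the mean log2 value of the 27 Bacillus control probe sets. Open circles (C1 to C4) are controls and filled circles (L1 to L4) light lesion arrays; the members' median is highest in the 4 light lesion arrays, and control replicate 3 has the highest background.

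The proteins of the cytosolic ribosome, which translates all nuclear messages, served as a comparison. All 73 measured genes with symbols of cytosolic ribosomal proteins were called higher, with a median log2 fold change of 0.79 and a range of 0.45 to 2.36. They were led by rps27l (2.36), rpl22l1 (1.53) and rplp2b (1.52). The 73 were taken by symbol and include genes named only as like a ribosomal protein, such as rpl7l1 (1.01). The gene rps19bp1 also matched the symbol pattern but encodes a binding partner, and it was left out after its value was seen. The statement that all were called higher does not cover it. The largest rise of a mitochondrial ribosomal protein gene (mrps15) lay below the median of the cytosolic ones. The products of mitochondrial ribosomes join complexes of the respiratory chain and the ATP synthase. Nuclear genes of the respiratory chain and ATP synthase (subunits, cytochrome c and inhibitors of the synthase) were split. Of 76 measured 17 rose (22.4%) and 14 fell (18.4%), with a median of 0.02. These shares lay near the 24.4% and 20.1% of all genes. The complex IV subunits cox6b1 (1.01) and cox5ba (0.39) and the complex I subunit ndufa1 (0.55) rose, and the complex I subunit ndufs1 fell by 0.88.

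Other genes of mitochondrial translation moved in both directions. Of 4 measured ribosomal proteins whose symbols do not start with mrp, gadd45gip1 was called higher (0.30, adjusted p = 0.0399) with overlapping arrays, and the other 3 did not pass. Of 10 mitochondrial translation factors 1 rose and 3 fell, with a median of -0.10. The elongation factor gfm1 rose by 0.19. The genes that fell were taco1 (-0.48, with overlapping arrays), lrpprc (-0.42) and mtfmt (-0.31). In mammals taco1 is needed to translate a complex IV subunit. The product of lrpprc binds mitochondrial mRNAs, and that of mtfmt formylates the initiator tRNA. Of 10 genes listed for mitochondrial tRNA charging 3 rose, hars (0.33), gars1 (0.30) and kars1 (0.27). Each of these 3 also encodes the cytosolic enzyme. The 1 gene that fell, pars2, lay at background (6.79 ± 0.04 in controls and 6.63 ± 0.05 after the lesion). Of 21 genes listed for assembly of the mitochondrial ribosome, modification of its RNA and protein quality control 2 rose and 4 fell. The risers were the protease clpp (0.34) and mettl5 (0.29), which in human cells modifies RNA of the cytosolic ribosome. Those that fell included the RNA-binding proteins grsf1 (-0.40) and fastkd2 (-0.26) and the assembly factor rcc1l (-0.30). Of 15 genes for maintenance and transcription of mitochondrial DNA 1 rose and 3 fell (median -0.11), with rrm2b, a subunit of ribonucleotide reductase, called higher with both groups at background (6.50 ± 0.19 and 6.85 ± 0.12) and poldip2 (-0.42), the nucleoside kinase dguok (-0.35) and the RNA helicase supv3l1 (-0.24) lower.

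Among genes of protein import and of mitochondrial gene regulation, rises outnumbered falls. Of 29 import genes 11 rose and 2 fell, with a median of 0.12. The co-chaperonin hspe1 (0.80), the import motor subunit dnajc19 (0.76) and the import receptor subunit tomm5 (0.73) rose, while the matrix chaperone hspa9 fell by 0.52. Of 12 regulators of mitochondrial biogenesis 5 rose and none fell, and 7 did not pass. The risers included the Myc factors mycn (0.86) and myca (0.77) and gabpa (0.72), an ETS factor that in mammals activates nuclear genes for mitochondrial proteins. Another riser, pprc1, lay at background in both groups (6.32 ± 0.08 and 7.01 ± 0.19). Those that did not pass included nrf1 (0.04, adjusted p = 0.744) and ppargc1b (-0.14, adjusted p = 0.101). Each of these counts is to be read against the 24.4% of genes called higher and 20.1% called lower over the whole array, and no test set 1 list against another.

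**Figure D4:**
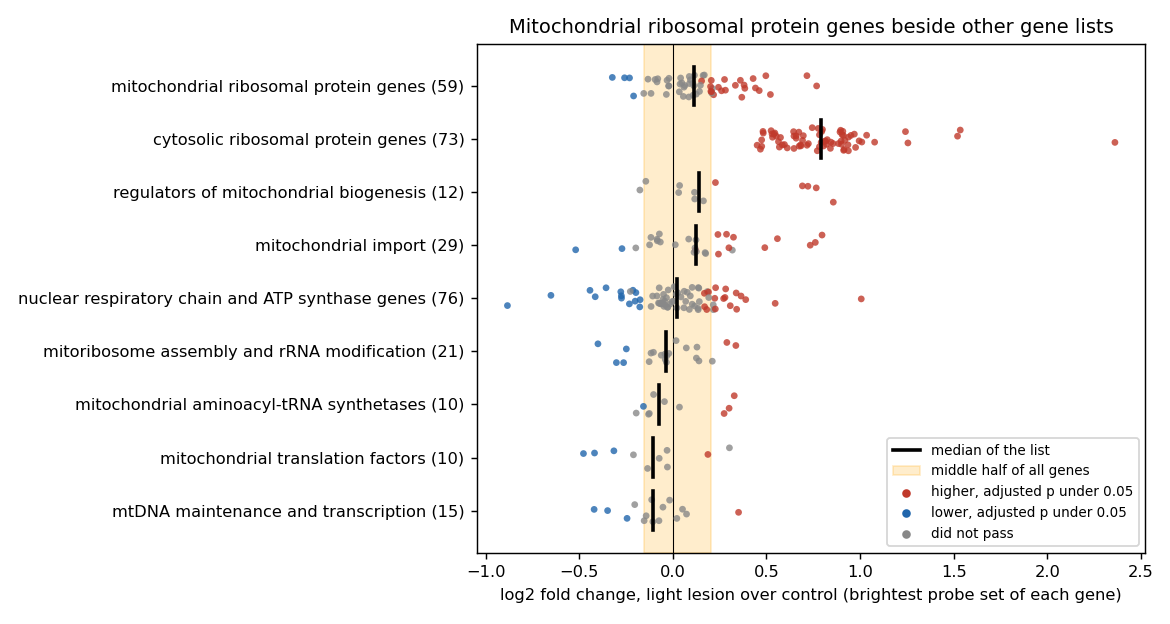
Log2 fold change (x axis) of every measured gene, read by its brightest probe set, in the mitochondrial ribosomal protein list and 8 other lists, with the number of genes in brackets. Black bars are list medians (0.12 for the mitochondrial and 0.79 for the cytosolic ribosomal protein genes), colours give the call, and the shaded band spans the lower to the upper quartile of all genes.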

How the data were processed

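RNA from 8 whole-retina samples, 4 control and 4 light lesion, was hybridised to 1-colour Affymetrix zebrafish arrays, per the labels. The deposited values are log2 signals, which the authors computed by RMA (per the submitters' processing notes). Its version and steps are not stated, and the values, 5.47 to 14.89, gave the base of the logarithm. The number of arrays limits the precision, and because nothing says the replicates were separate animals, the p-values rest on a spread that may be technical. The file names no genome build, so no coordinates are given, and no sequences were used.

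Sample titles gave the groups and the replicate numbers. Of 15617 probe sets 115 AFFX controls were left out of the tests. The array annotation gave 1 symbol for 10795 of the others, several for 135 and none for 4572. The comparison used limma 3.58.1 in R 4.3.3 (lmFit, eBayes, two-sided, no covariate, no filter) with adjustment over 15502 probe sets. The script was tested on simulated data.

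The members and lists were chosen with earlier results of these data known, so no p is given over a list. Large and small subunit follow the human ribosome (mrps30 and mrps18a in the large subunit). The genes mrps18a, mrps18b and mrps18c were counted as having a bacterial counterpart. Named members were the 12 largest rises and all falls among called probe sets without overlap, every gene with several probe sets, the 4 smallest p among those not passing, and members with an array standing apart. The risers mrps24, mrps30, mrpl40, mrpl32, mrpl24, mrpl47, mrpl20, mrpl23 and mrpl4 were named after their values were seen. So were the members mrpl14, mrps18a, mrpl12, mrpl44, mrpl45, mrpl43, mrps33, mrps23, mrps26 and mrps34. The gene rps19bp1, which matched the pattern for cytosolic ribosomal proteins but encodes a binding partner, was left out after its value was seen. From each other list the text names up to 3 called genes that moved as the list's median did and 1 that moved the opposite way. The cell marker lists are an exception, with no gene named. Also named from these lists, after their values were seen, were mettl5, gars1, kars1, rpl7l1, pprc1, nrf1 and ppargc1b. Alternatives were the omission of each array, a block for replicate number, median centring or a second quantile normalization of the arrays, a filter on dim probe sets (mean under the 25th percentile), array weights, a trended and robust prior, 1 averaged value per gene and a threshold of 0.01. The background covariate and the omission of both arrays of lowest weight were added after the data were seen.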

Additional observations from a re-analysis of the deposited data

Results flagged for a closer look

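In 7 of 138 groups of 4 arrays, 2 for each of the 69 probe sets, the highest or lowest array stood apart from the other 3 by Dixon's test. Chance alone sets an array apart in about 5% of such groups. Light lesion replicate 1 was involved for mrps12, where it was lowest at 9.50 with the next array at 9.91, and for mrpl15, where it was highest at 9.74 with the next at 9.58. Light lesion replicate 4 was highest for mrpl21, at 10.2 with the next at 10.02, and lowest for mrpl41, at 9.19 with the next at 9.34. Light lesion replicate 2 was highest for the brighter probe set of mrps18b, at 9.07 with the next at 8.73, and light lesion replicate 3 was highest for mrps2, at 8.95 with the next at 8.86. Control replicate 3 was lowest for mrpl18, at 9.94 with the next at 9.99. No explanation was tested.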

How the results depend on the processing

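Over the 17 alternatives that kept the threshold of 0.05, 22 to 28 members were called higher and 3 to 6 lower, against 26 and 4, and the median log2 fold change of the members stayed between 0.08 and 0.16. Averaging the probe sets of a gene gave 22 of 59 genes higher and 4 lower. Of the 30 calls 25 held in the other 16, each made per probe set, 22 upwards and 3 downwards, and those lost in some were mrpl47, mrps5, mrpl20, mrpl4 and mrps31. Leaving out each array gave 22 to 28 higher and 3 to 4 lower. The second quantile normalization gave 25 higher and 6 lower, and a threshold of 0.01 left 21 higher and 2 lower, by the stricter limit itself. With the replicate number as a block 23 were called higher and 4 lower. Deviations of same-numbered samples correlated at -0.21, 0.28, -0.24 and 0.17, and those of differently numbered samples at -0.34 to 0.33. These values cannot decide whether equal numbers mark a shared batch, and the main comparison did not treat the numbers as pairs. Without control replicate 3 and light lesion replicate 1 together 23 were higher and 4 lower. Sign changes occurred in 7 named probe sets that passed under none of the settings concerned, and the cause was not tested. Leaving out each array, mrps35 ran from -0.00211 to 0.120 (brighter) and from -0.0975 to 0.0298 (dimmer), mrpl19 from -0.0521 to 0.0108 (brighter) and from -0.0782 to 0.125 (dimmer), the dimmer mrpl28 from -0.0862 to 0.0539 and mrps12 from -0.0603 to 0.0849. Without both arrays of lowest weight mrps35 (brighter) stood at -0.0117, mrpl19 (dimmer) at -0.0828 and mrps12 at 0.0731. With the background covariate mrps35 (brighter) stood at -0.00410 and mrpl19 (dimmer) at -0.0821. The quantile normalization gave -0.0143 for mrpl19 (dimmer) and array weights gave 0.0251 for mrps12. Averaging the probe sets of a gene gave -0.00111 for mrpl19, 0.00310 for mrps35 and 0.0648 for mrps5. For the 37 member probe sets named by rule and for other listed genes, 2412 values were recomputed. Of these, 2262 kept direction and call, 65 lost and 8 gained a call, 55 counts or medians moved and 22 changed sign. Members named after their values were seen, such as mrpl47, mrpl20, mrpl4 and mrpl14, are outside this tally. Another scaling moved the median of all probe sets from -0.04 to -0.03. The planned search of promoter motifs was not run, because no sequence was used here. With 4 arrays a group and a median SE of 0.0667, changes of the size of most members lie near the limit of what could be called, and probe sets at background can understate a change.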
